A study of Mus musculus with 6 samples.

Results

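The genes described here are 41 genes of protein folding, export and stress signalling in the endoplasmic reticulum (ER). They were chosen by name: chaperones, protein disulphide isomerases and prolyl isomerases of the ER lumen, the sensors and transcription factors of the unfolded protein response (UPR), ER-associated degradation genes, the translocon, the COPII coat and the KDEL receptors. Each symbol was matched to its Ensembl gene in the count tables, so that 41 of 53801 gene identifiers make up the list, and all 41 had enough reads to enter the test over 14531 genes. RNA came from MC3T3-E1, an established mouse calvarial pre-osteoblast line, infected either with a lentivirus for a scrambled non-silencing shRNA (Control, n = 3 libraries) or with one for an shRNA against Hdac4 (Hdac4-knockdown, n = 3 libraries). Hdac4 encodes a class IIa histone deacetylase that restrains transcription factors such as Runx2 and Mef2. Both groups had the same ZsGreen1 and puromycin resistance vector and were selected with 5 μg/mL puromycin for 7 days. The sequenced knockdown is described by the study as Hdac4-shRNA3, which makes it 1 hairpin against 1 scrambled sequence, and an effect of this hairpin on other transcripts cannot be told apart from the loss of Hdac4. The labels speak of 3 independent RNA samples per group and do not say that these came from separate infections, so the p-values measure the spread between these samples.

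Proteins that enter the secretory route are threaded through the Sec61 translocon into the ER, where chaperones such as BiP (Hspa5) and calreticulin (Calr) hold them while disulphide bonds form and proline bonds turn. Folded cargo leaves in vesicles with a COPII coat, misfolded cargo is returned to the cytosol and degraded, and escaped chaperones are brought back from the Golgi by KDEL receptors. When unfolded protein accumulates, the sensors IRE1 (Ern1), PERK (Eif2ak3) and ATF6 signal to the nucleus through spliced Xbp1, through Atf4 and through ATF6 itself, which is the UPR. Osteoblasts depend on this machinery because they secrete type I collagen, a long rigid cargo that needs its own folding helpers and large carriers. IRE1 and ATF6 act through splicing and cleavage, and gene counts show neither.

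Each library held between 29096544 and 31651826 counts on genes, and the lowest count of any of the 41 genes in any library was 233 (Trib3). The libraries of the groups differed in make-up without overlap. Between 19373 and 19797 genes had a count in Control and between 22148 and 22640 in knockdown libraries. Reads outside genes were 3.17 to 3.41% and 4.64 to 5.07% of all counts, reads on several genes 6.36 to 6.51% and 5.84 to 5.92%, and reads with several alignments 4.61 to 4.77% and 3.88 to 4.15%, and the part of these differences in the results was not tested. Values below are normalised read counts in counts per 1000000 gene counts after TMM scaling (CPM) and log2 fold changes of Hdac4-knockdown against Control from an edgeR quasi-likelihood F test. A gene was called when its Benjamini-Hochberg adjusted p over all genes was below 0.05 and its log2 fold change was beyond 0.05 in size, which are the thresholds of the study. Hdac4 itself was at 40.7, 40.2 and 39.9 CPM in the Control libraries and at 30.7, 28.8 and 29.5 CPM in the knockdown libraries (log2 fold change -0.44, SE 0.057, adjusted p = 8.98e-07), which is 73.6% of Control, and 3536 of its 15813 exon bases also belong to Gm26720. The contrast moved most of the transcriptome, since 75.1% of the tested genes were called, 38% higher and 37.1% lower. The study reports fewer genes in each direction at the thresholds it names, and the cause of this difference was not tested. Of 8 osteoblast markers 5 passed the count filter. The 8 together summed to 3550 to 3584 CPM in Control and 12922 to 13534 CPM in knockdown libraries (mostly Col1a1 and Spp1). The rise of this sum was that of Col1a1 alone, and the other markers together summed to less in knockdown than in Control libraries. Such a sum does not show the direction of single markers, and the study reports higher Runx2 and Sp7 as well as Col1a1. Alpl, Ibsp and Bglap were near 0 in every library. All 3 skeletal muscle markers (Myod1, Myog, Myh3) were detected, with a sum of 98.3 to 108 CPM in Control and 15.5 to 16.3 CPM in knockdown libraries. The 3 chondrocyte markers summed to 125 to 128 CPM in Control and 168 to 185 CPM in knockdown libraries, with Acan at 0 throughout, and the 3 endothelial markers summed to at most 0.39 CPM in Control and 3.12 CPM in knockdown libraries, with no overlap between the groups. The adipocyte, haematopoietic and epithelial lists summed to at most 2.49 CPM in any library. The part of these cell-state differences in the results below was not tested, and in bulk RNA fewer cells of a type and less RNA per cell cannot be told apart.

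Several of the promoters carry the sequences through which the UPR is known to act. Exact matches are shown first, and the calls of the genes that carry them follow. RefSeq promoter windows (GRCm38.p6, 250 bases before to 50 bases after the start site) were at hand for 34 of the 41 genes. The ER stress element, CCAAT and CCACG with 9 bases between them, searched on both strands, is where NF-Y sits on the CCAAT part and ATF6 or XBP1 on the CCACG part. It was present in 39 of 32851 promoters (0.119%) and in those of 8 of the genes, with its first base between 212 and 44 bases before the start site. In the lines that follow, each sequence reads 5′ to 3′ on the strand of its gene, and capitals mark the element, which begins with CGTGG and ends with ATTGG where it lies on the opposite strand.
Hspa5 (chr2:34772020-34772048, plus strand): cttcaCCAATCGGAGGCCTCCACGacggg
Syvn1 (chr19:6046520-6046562, plus strand): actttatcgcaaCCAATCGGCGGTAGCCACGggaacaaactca
Calr (chr8:84847063-84847105, minus strand): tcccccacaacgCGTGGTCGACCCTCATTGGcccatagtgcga
Dnajc3 (chr14:118937815-118937857, plus strand): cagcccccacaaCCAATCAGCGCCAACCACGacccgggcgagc
Canx (chr11:50325788-50325830, minus strand): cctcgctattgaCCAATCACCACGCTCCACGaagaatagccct
Creld2 (chr15:88819508-88819550, plus strand): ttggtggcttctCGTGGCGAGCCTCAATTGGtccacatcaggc
Pdia6 (chr12:17266479-17266521, plus strand): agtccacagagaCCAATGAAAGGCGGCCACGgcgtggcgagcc
Hsp90b1, which holds 2 elements with 86 bases between them (chr10:86705528-86705661, minus strand): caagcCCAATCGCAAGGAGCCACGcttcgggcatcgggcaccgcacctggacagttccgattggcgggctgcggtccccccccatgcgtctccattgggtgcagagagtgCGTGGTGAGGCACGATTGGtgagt

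The 8 genes with the element went in different directions. Hspa5, Syvn1 and Calr were called higher, Pdia6 and Creld2 lower, and Hsp90b1, Canx and Dnajc3 were not called, for a median log2 fold change of 0.05 and a range from -0.25 to 0.81. The Creld2 call held in 7 of 15 analyses, counting the main one. Among the 26 genes with a promoter window that lacks an exact match, 23 were called higher, none was called lower and 3 were not called, with a median of 0.38. The carriers of the type II form and of the UPR element core, given below, are among these 26. Of all tested genes 38% were called higher and 37.1% lower, and the 3 and 2 of the 8 genes are near or below these shares. The type II form of the element, ATTGG and CCACG with 1 base between them, was in 12 promoters of the table (0.0365%), and 2 of these belong to the list. Both genes, Herpud1 and Dnajb11, were called higher. The core of the UPR element, TGACGTGG, was in 222 promoters (0.676%) and in those of Sec24d, Sec23a and Kdelr3, all called higher. Its last bases are the reverse complement of the CCACG part above, and the ER stress elements each hold a CCAAT box (CCAAT or ATTGG), which by itself was in 37.4% of promoters and in those of 24 of the genes. The core of the amino acid response element to which Atf4 binds, TGATGCAAT, was in 63 promoters (0.192%) and in none of the 34 windows, those of Ddit3, Trib3 and Chac1 included. At that share no match is likely in 34 windows of any genes, and sites outside the window or with other letters are missed. The absence does not show that these genes lack such a site. All of these matches are of exact letters in a short window, and a gene without a match may hold a variant or more distant site. No binding was measured. The shorter forms read as follows in the genes that carry them.
Herpud1, type II (chr8:94386365-94386399, plus strand): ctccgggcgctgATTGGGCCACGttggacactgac
Dnajb11, type II (chr16:22857847-22857867, plus strand): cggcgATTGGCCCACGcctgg
Sec24d, UPR element core (chr3:123267465-123267482, plus strand): gcgccTGACGTGGcacta
Sec23a, UPR element core (chr12:59011999-59012016, minus strand): cccttTGACGTGGcagag
Kdelr3, UPR element core on the opposite strand (chr15:79516366-79516397, plus strand): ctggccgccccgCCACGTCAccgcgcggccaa

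**Figure D1:**
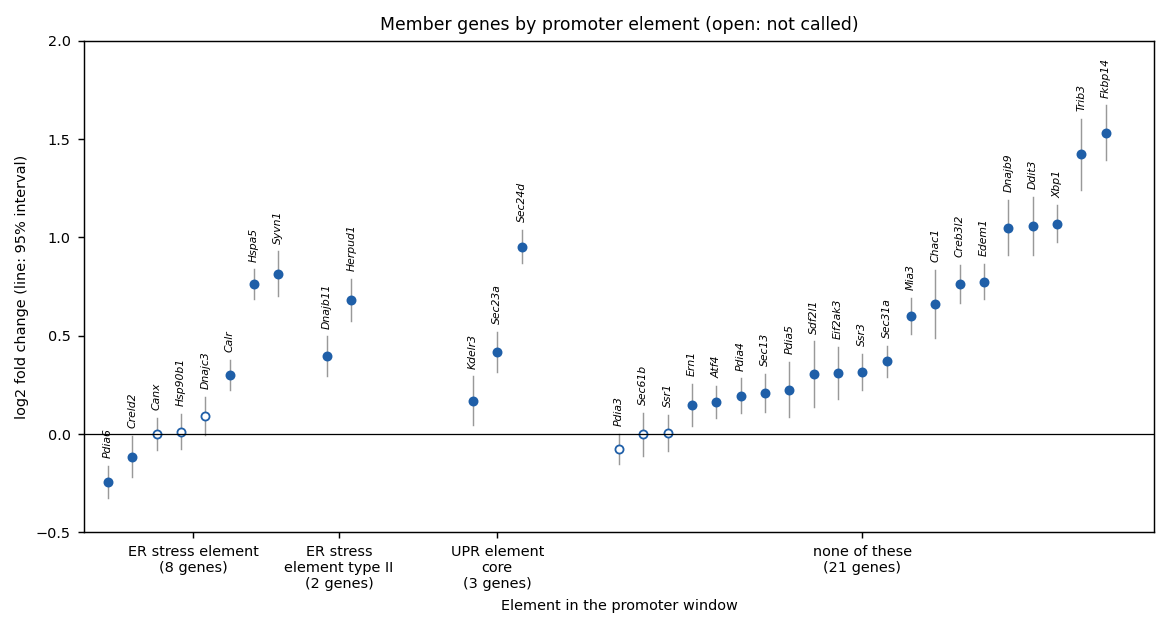
Log2 fold change of the 34 genes with a RefSeq promoter window (y axis, Hdac4-knockdown against Control, lines are 95% intervals, n = 3 libraries per group), set out by the element found in the window (x axis). The 8 genes with an ER stress element run from -0.25 (Pdia6) to 0.81 (Syvn1), and the highest value, 1.53 (Fkbp14), belongs to a gene with none of the 3 elements.

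Over the whole list, 32 of the 41 genes were called higher, 3 lower (Pdia6, Atf6 and Creld2) and 6 were not called (Hsp90b1, Canx, Dnajc3, Pdia3, Sec61b and Ssr1). The count of 32 stands against 38% of all tested genes called higher, and the 3 against 37.1% called lower. The changes were mostly small. Their median was 0.31 on the log2 scale, against 0.01 for all tested genes, whereas the median size of change was 0.31 for the list and 0.46 for all tested genes. At a threshold of 0.5 on the log2 scale, 15 of the genes were higher and none lower (24.6% and 19.8% of all tested genes), and at a threshold of 1 the count was 6 higher (16.5% of all tested genes). Those 6 genes were Fkbp14, Trib3, Creb3l1, Xbp1, Ddit3 and Dnajb9. Whether one gene changed more than another was not tested. The Control and knockdown libraries did not overlap in CPM for 36 of the 41 genes, against 76.8% of all tested genes. Spread between libraries was low, with a coefficient of variation from 0.42% (Dnajc3) to 7.38% (Trib3) in Control and from 0.55% (Pdia4) to 7.66% (Dnajb9) in the knockdown.

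**Figure D2:**
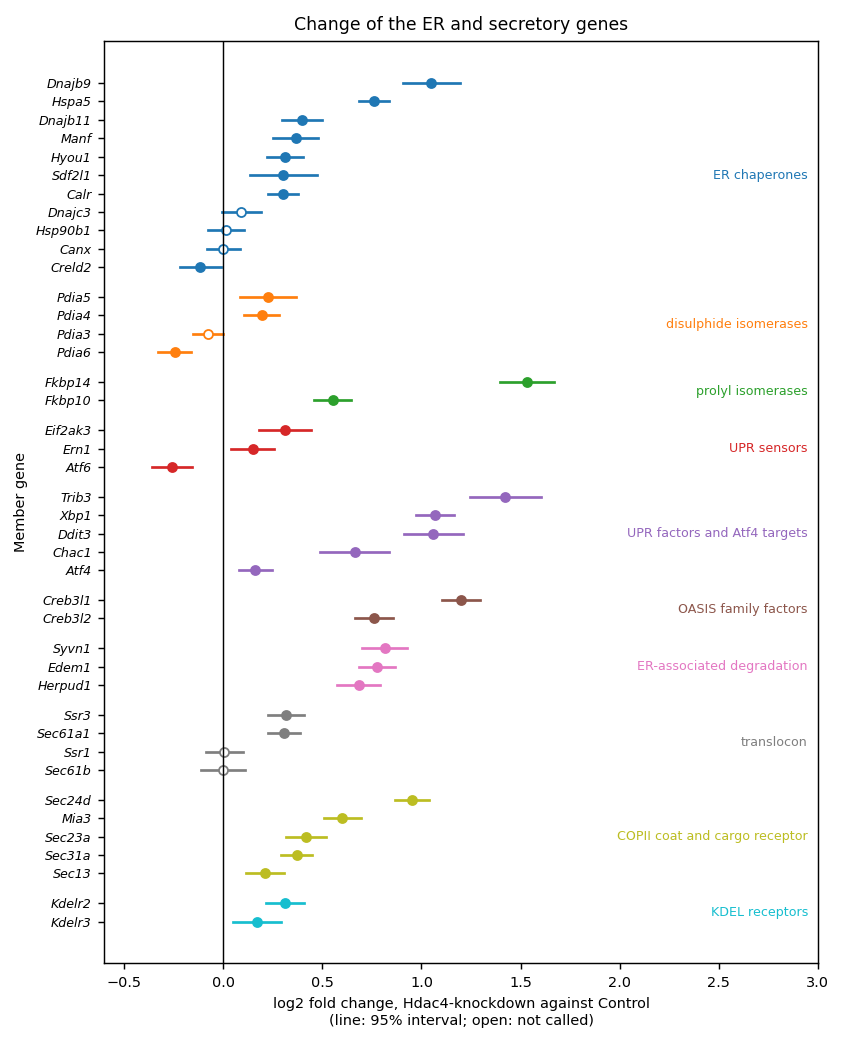
Log2 fold change of each of the 41 genes (x axis) with its 95% interval, grouped by role (n = 3 libraries per group). Filled points were called and open points were not, and the UPR factors, the OASIS factors, the degradation genes and the COPII genes all lie to the right of 0.

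Among 11 chaperones and co-chaperones of the ER, 7 were higher, 1 was lower and 3 were not called, with a median log2 fold change of 0.30. That is 63.6% higher and 9.09% lower, against 38% and 37.1% of all tested genes. Called in either direction were 72.7% of the chaperones, 75% of the disulphide isomerases and 50% of the translocon genes, against 75.1% of all tested genes. This share was 100% in each of the other groups by role. Hspa5 (chr2:34771970-34777547) encodes BiP, the Hsp70 of the ER lumen and its classical stress marker. It was at 518, 513 and 513 CPM in the Control libraries and at 862, 860.2 and 895 CPM in the knockdown libraries. The Control libraries lay close together and far below the knockdown libraries, and the change was 0.76 (SE 0.036, adjusted p = 2.18e-13). Dnajb9 (ERdj4), a J-domain co-chaperone that works with BiP, changed most within the group, from 19.7, 20.4 and 21.2 CPM to 45.0, 38.7 and 43.3 CPM. Its knockdown libraries all lay above its Control libraries, with knockdown replicate 2 the lowest of them, and its change was 1.05 (SE 0.068, adjusted p = 2.97e-11). Dnajb11 (ERdj3), another co-chaperone of BiP, rose by 0.40. Hyou1, which exchanges the nucleotide of BiP, rose by 0.31, and Sdf2l1, a partner of Dnajb11, rose by 0.30. Manf, a small secreted ER protein induced by stress, rose by 0.36.

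Of the lectin chaperones of glycoproteins, Calr was called and Canx was not. Calr, the soluble one, was at 596, 590.1 and 613 CPM in Control libraries and at 725, 743 and 748 CPM in knockdown libraries, a change of 0.30 (SE 0.036, adjusted p = 3.59e-07). Canx, the membrane-bound one, was at 572, 562 and 581 CPM and at 588, 542 and 585 CPM. Its groups overlapped and its mean was the same in both, with a 95% interval of the log2 fold change from -0.08 to 0.08, and it was called higher in 1 of 14 alternative analyses (upper quartile scaling, 0.09, adjusted p = 0.0485). Hsp90b1 encodes GRP94, the Hsp90 of the ER and, like BiP, an abundant stress-inducible chaperone. It was at 460.1, 431 and 475 CPM in Control and 473, 440.4 and 466 CPM in knockdown libraries, with overlapping groups and an interval from -0.08 to 0.10. It was called higher in 1 of 14 alternative analyses (upper quartile scaling, 0.10, adjusted p = 0.0383), and 632 of its 4032 exon bases are shared with other annotated genes. Dnajc3 (p58IPK), an inhibitor of PERK, was not called at 0.09 (adjusted p = 0.0796), with one knockdown library (replicate 2, 119.7 CPM) inside the Control range. It was called higher in 4 of 14 alternative analyses, which were library size alone, upper quartile scaling, at least 10 counts in every library, and without Hdac4-knockdown replicate 2 (0.14, adjusted p = 0.00449). Creld2, an ER-resident protein induced by stress, was called lower at -0.12 (SE 0.050, adjusted p = 0.0442), a call that was lost in 8 of 14 alternative analyses.

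The 4 disulphide isomerases split as well, with 2 higher, 1 lower and 1 not called (75% called, against 75.1% of all tested genes). Pdia6 (chr12:17266545-17284770), which also damps IRE1, was at 295, 281 and 289 CPM in Control and 239.7, 242 and 248 CPM in knockdown libraries. Every knockdown library lay below every Control library, a change of -0.25 (SE 0.039, adjusted p = 1.27e-05) that held in all 15 analyses. Pdia3 (ERp57), the partner of the lectin chaperones, was at 608, 633 and 625 CPM and at 591, 580.0 and 597 CPM. Its groups did not overlap, but its change of -0.08 (adjusted p = 0.0619) was not called. It was called lower in 3 of 14 alternative analyses, which were limma-voom (adjusted p = 0.0422), no filter beyond 1 count (-0.11, adjusted p = 0.0166) and without Control replicate 1 (-0.10, adjusted p = 0.0362). With upper quartile scaling it turned to 0.01. Pdia4 and Pdia5 rose by 0.19 and 0.23. Together the 4 genes summed to 1050.0 ± 9.47 CPM (SD, n = 3) in Control and 993 ± 9.85 CPM in knockdown libraries, a ratio of 0.95 that turned to 1.01 when libraries were scaled by their upper quartile.

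The prolyl isomerases, which turn the many proline bonds of procollagen, both rose (100% called higher, against 38% of all tested genes). Fkbp14 (FKBP22, chr6:54577604-54597308), whose loss in humans gives a form of Ehlers-Danlos syndrome, was at 17.9, 16.5 and 17.9 CPM in Control libraries and at 51.4, 46.9 and 53.1 CPM in knockdown libraries. It had the highest log2 fold change of the 41 genes at 1.53 (SE 0.066, adjusted p = 4.41e-14), with every knockdown library above every Control library. Fkbp10 (FKBP65), an osteogenesis imperfecta gene, was at 168, 180.0 and 168 CPM and at 244, 265 and 248 CPM, a change of 0.55 (SE 0.044, adjusted p = 9.23e-10). The exons of both overlap other genes in part, by 208 of 4149 bases for Fkbp14 and 193 of 2935 for Fkbp10. Other shared stretches were annotated for Sec61a1 (549 of 6732 bases), Eif2ak3 (485 of 6026), Sec23a (431 of 4840) and Manf (326 of 3524). Reads that the counter placed on several genes were counted for none of them.

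**Figure D3:**
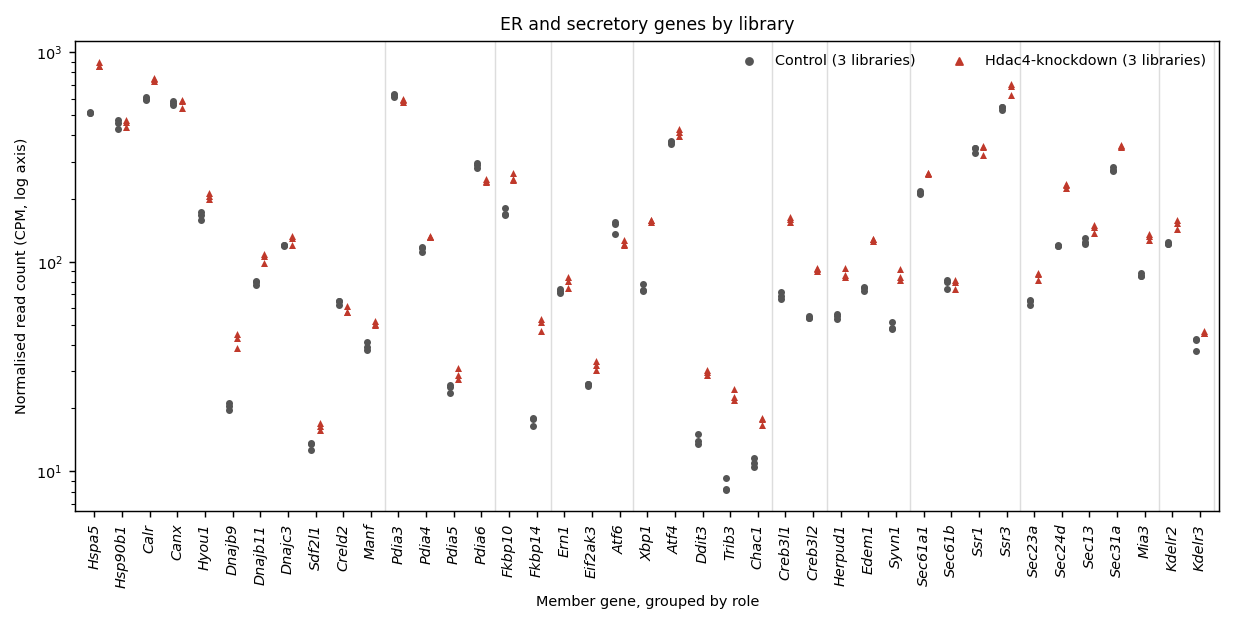
Normalised read count (CPM, log axis) of each of the 41 genes in each of the 6 libraries, grouped by role. Grey circles are the 3 Control libraries and red triangles the 3 Hdac4-knockdown libraries, and for genes such as Fkbp14, Xbp1, Creb3l1 and Sec24d the groups stand well apart, whereas for Hsp90b1, Canx, Sec61b and Ssr1 they lie on top of each other.

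The sensors of the UPR changed by no more than 0.31 in size on the log2 scale. Eif2ak3, the kinase that phosphorylates eIF2α, was at 26.1, 26.1 and 25.5 CPM in Control and 30.4, 32.2 and 33.8 CPM in knockdown libraries (0.31, SE 0.063, adjusted p = 1.87e-04). Ern1, the kinase and nuclease that splices Xbp1, was at 73.8, 70.8 and 72.8 CPM and 84.8, 81.3 and 74.8 CPM (0.15, SE 0.051, adjusted p = 0.0138). Its lowest knockdown library was close to its highest Control library, and the call was lost in 4 alternative analyses, among them those without Control replicate 2 (0.12, adjusted p = 0.0758), Control replicate 3 (0.14, adjusted p = 0.053) or Hdac4-knockdown replicate 1 (0.12, adjusted p = 0.0568). Atf6, the sensor that is cut in the Golgi to release a transcription factor, went the other way, from 136, 151 and 154 CPM to 126, 121 and 122 CPM (-0.26, SE 0.049, adjusted p = 8.62e-05). Control replicate 1 was the lowest of its group for Atf6 and still above the highest knockdown library.

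Downstream of the sensors, all 5 transcription factors and targets of Atf4 rose, with a median of 1.06 (100% called higher, against 38% of all tested genes). Xbp1 (chr11:5520659-5525893), the factor spliced by IRE1, was at 78.3, 72.4 and 73.5 CPM in Control libraries and at 155, 158 and 158 CPM in knockdown libraries, which is 2.10 times the Control mean (1.07, SE 0.045, adjusted p = 2.84e-14). Atf4, which is controlled mainly at translation, was at 375, 373 and 362 CPM and 399.6, 429 and 415 CPM (0.16, SE 0.039, adjusted p = 0.00104). The groups were close for Atf4 but did not overlap. Ddit3 (CHOP), a pro-apoptotic factor downstream of Atf4, was at 14.0, 15.1 and 13.5 CPM and 29.7, 30.4 and 28.7 CPM (1.06, SE 0.071), and 186 of its 1713 exon bases overlap another gene. Trib3, a pseudokinase that feeds back on Atf4, was at 8.28, 9.32 and 8.17 CPM and 22.7, 24.7 and 21.8 CPM (1.42, SE 0.086). Chac1, which degrades glutathione, was at 11.0, 11.6 and 10.5 CPM and 16.7, 18.0 and 17.7 CPM (0.66, SE 0.082). All 3 were at 15.1 CPM or less in every Control library, and each knockdown library exceeded each Control library. The groups did not overlap for 76.8% of all tested genes.

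The OASIS factors are membrane-bound relatives of ATF6, of which Creb3l1 (OASIS) is known in osteoblasts as an activator of Col1a1 and Creb3l2 (BBF2H7) in chondrocytes as an activator of the COPII gene Sec23a. Creb3l1 (chr2:91982328-92024502) was at 66.8, 68.8 and 71.9 CPM in Control libraries and at 154, 163 and 160.0 CPM in knockdown libraries. The libraries of the groups were far apart, with a change of 1.20 (SE 0.046, adjusted p = 5.97e-15). Creb3l2 was at 54.0, 53.8 and 54.8 CPM and at 92.4, 90.3 and 93.2 CPM, a change of 0.76 (SE 0.046, adjusted p = 9.23e-12). The 3 listed genes of ER-associated degradation were called higher (100%, against 38% of all tested genes). Syvn1, the ubiquitin ligase HRD1, was at 47.7, 51.8 and 48.2 CPM and 84.8, 92.5 and 82.3 CPM (0.81, SE 0.055, adjusted p = 5.50e-11). Edem1, which trims mannose from glycoproteins to be degraded, was at 75.7, 75.1 and 72.9 CPM and 129, 125 and 129 CPM (0.77, SE 0.043, adjusted p = 3.04e-12). Herpud1, an adaptor of the HRD1 complex, was at 56.4, 55.4 and 53.2 CPM and 84.5, 93.6 and 86.7 CPM (0.68, SE 0.051, adjusted p = 3.10e-10). In none of the 3 did the groups overlap, which was also so for 76.8% of all tested genes.

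Of the 4 listed translocon genes, 2 rose and 2 were not called (50% called, against 75.1% of all tested genes). Sec61a1, the channel subunit, was at 210.2, 217 and 213 CPM in Control and 266, 262 and 265 CPM in knockdown libraries (0.31, SE 0.038, adjusted p = 5.74e-07). Sec61b, a small subunit of the same channel, was at 80.0, 81.7 and 74.0 CPM and 73.8, 81.8 and 79.9 CPM, with overlapping groups and an interval from -0.11 to 0.11 on the log2 scale. The translocon-associated complex was split in the same manner. Ssr3 was at 545, 527 and 545 CPM and 687, 623 and 704 CPM (0.32, SE 0.044, adjusted p = 2.13e-06), with knockdown replicate 2 the lowest of its group. Ssr1, a subunit of the same complex, was at 349.9, 329.9 and 349 CPM and 357, 321 and 354 CPM, and its interval ran from -0.09 to 0.10.

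All 5 listed genes of the COPII coat and its collagen receptor rose, with a median of 0.42 (100% called higher, against 38% of all tested genes). At a threshold of 0.5 on the log2 scale, 2 of them were higher (24.6% of all tested genes). Sec24d (chr3:123267455-123365641), a cargo-binding subunit whose mutation in humans gives an osteogenesis imperfecta-like disorder, was at 119, 119 and 119.7 CPM in Control libraries and at 232, 234 and 225 CPM in knockdown libraries. The 3 libraries of each group lay close together and far from the other group, with a change of 0.95 (SE 0.040, adjusted p = 3.00e-14). Mia3 (TANGO1), the receptor that loads procollagen into COPII carriers, was at 85.6, 85.7 and 88.8 CPM and 135, 126 and 133 CPM (0.60, SE 0.044, adjusted p = 2.60e-10). Sec23a, the inner-coat partner of Sec24d and the gene of cranio-lenticulo-sutural dysplasia, was at 62.3, 65.9 and 64.9 CPM and 87.7, 82.1 and 87.9 CPM (0.42, SE 0.048, adjusted p = 2.10e-07). The outer coat followed with smaller changes, Sec31a rising by 0.37 (SE 0.038) and Sec13 by 0.21 (SE 0.046). The KDEL receptors Kdelr2 and Kdelr3, which return chaperones from the Golgi, rose by 0.31 (SE 0.045, adjusted p = 3.96e-06) and 0.17 (SE 0.059, adjusted p = 0.0133). Kdelr3 was at 42.8, 42.3 and 37.6 CPM in Control and 45.5, 46.7 and 46.0 CPM in knockdown libraries, and without the low Control replicate 3 its change was 0.10, adjusted p = 0.16, and no longer called.

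Several of these genes belong to families whose other members were not on the list, and the paralogs give the comparison within each family. Of 29 such paralogs 26 were tested, of which 10 were higher, 7 lower and 9 not called, with a median log2 fold change of 0.04. That is 38.5% higher and 26.9% lower, against 38% and 37.1% of all tested genes. In the Sec24 family, Sec24d was at 0.95 while Sec24a (-0.02) and Sec24b (0.05) were not called and Sec24c was lower (-0.23, SE 0.041, adjusted p = 4.84e-05). Sec23b (-0.08, adjusted p = 0.115), Mia2 (0.07, adjusted p = 0.222) and Kdelr1 (-0.03, adjusted p = 0.58) were not called beside Sec23a, Mia3 and the other KDEL receptors. Sec31b, the other form of Sec31, was at 0.131, 0.535 and 0.211 CPM in Control and 6.88, 6.14 and 6.68 CPM in knockdown libraries (4.47, SE 0.27, adjusted p = 8.10e-12). Among EDEM proteins, Edem2 was lower (-0.29) and Edem3 was not called (-0.04) while Edem1 rose. Atf6b was higher (0.29, SE 0.049, adjusted p = 2.80e-05) where Atf6 was lower.

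Among the remaining paralogs are enzymes that act on collagen. P4hb, which is both a disulphide isomerase and the β subunit of collagen prolyl 4-hydroxylase, was at 869, 919 and 900.1 CPM in Control and 1229, 1259 and 1266 CPM in knockdown libraries (0.48, SE 0.036, adjusted p = 3.40e-10). Fkbp9, a relative of Fkbp10, rose by 0.56 (SE 0.039), whereas Fkbp11 was not called (0.08) and Fkbp7 (-0.21) and Fkbp2 (-0.60) were lower. In the translocon complexes, Ssr2 rose by 0.50, Ssr4 was not called (0.02), Sec61a2 rose by 0.21 and Sec61g was lower (-0.34), and 19.9% of the exon bases of Sec61a2 are shared with Nudt5. Creld1 was at 16.8, 16.8 and 18.3 CPM in Control and 3.59, 3.38 and 3.16 CPM in knockdown libraries (-2.36, SE 0.10), and Sdf2 was lower at -0.43 where Sdf2l1 was higher. Herpud2 (0.18) and Cdnf (0.64) were higher, Creb3 was not called (-0.09), and Creb3l3 and Creb3l4 were called higher at no more than 1.89 CPM in any library.

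**Figure D4:**
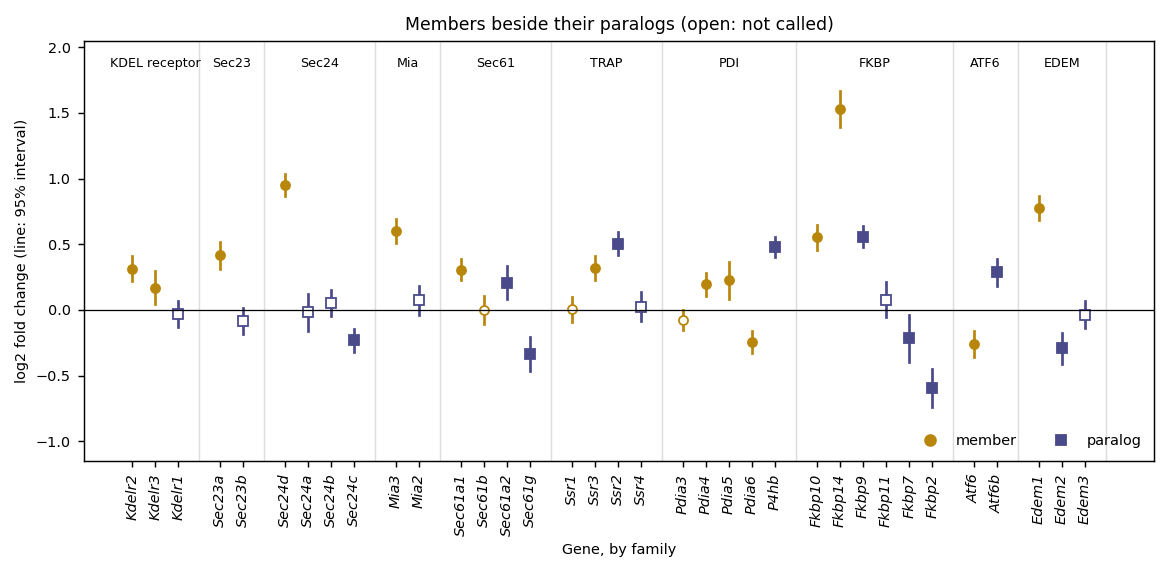
Log2 fold change (y axis, lines are 95% intervals, n = 3 libraries per group) of listed genes (circles) and of paralogs that were not on the list (squares), by family. In the Sec24 family the listed Sec24d stands at 0.95 and its 3 paralogs between -0.23 and 0.05.

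The comparison with collagen addresses whether the secretory genes followed the rise of collagen. Of 21 collagen genes 16 were called higher and 3 lower (76.2% and 14.3%, against 38% and 37.1% of all tested genes), with a median log2 fold change of 2.08. Col1a1, one chain of type I collagen, was at 322, 351 and 340.1 CPM in Control libraries and at 10806, 11390.3 and 10848 CPM in knockdown libraries (5.03, SE 0.045). Col1a2, the other chain, was at 1188, 1229 and 1224 CPM and at 8527, 8752 and 8437 CPM (2.82, SE 0.036). The fibril-regulating Col5a1 and Col5a2 rose by 2.08 and 1.54, and Col3a1 by 0.23. The 21 genes together made up 0.766% of gene counts in Control and 3.83% in knockdown libraries.

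The 41 ER and secretory genes rose far less than the collagens. Their summed level was 6908, 6877 and 6969.6 CPM in the Control libraries and 8488, 8366 and 8586 CPM in the knockdown libraries, which is 6918 ± 47.0 and 8480 ± 111 CPM (SD, n = 3) and a ratio of 1.23. The collagen sum was 7824 ± 223 CPM in Control and 37607 ± 992 CPM in knockdown libraries, a ratio of 4.81. Much of this rise lay in Col1a1 and Col1a2, which together went from 1551 ± 36.5 to 19587 ± 482 CPM, a ratio of 12.6. Collagen reads per read of the 41 genes, a quantity that does not depend on how libraries are scaled, were 1.10, 1.16 and 1.14 in Control libraries. In knockdown libraries they were 4.42, 4.62 and 4.27. This ratio of collagen to the 41 genes was 3.92 times higher in the knockdown, and other secreted cargo does not enter it. Per kilobase of exon the same quantity was 0.475 ± 0.0139 in Control and 2.02 ± 0.0777 in knockdown libraries (SD, n = 3), 4.26 times higher. These sums are of mRNA, and no protein or secretion was measured.

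By role, no group of the list rose as much as the collagen sum. The OASIS factors summed to 2.03 times their Control level, the degradation genes to 1.69 times, the prolyl isomerases to 1.60 times and the COPII genes to 1.41 times (670.7 ± 2.61 CPM in Control and 948 ± 3.71 CPM in knockdown libraries, SD, n = 3). The UPR factors and targets of Atf4 summed to 1.34 times, the chaperones to 1.23 times, the KDEL receptors to 1.21 times and the translocon to 1.16 times. Most of the UPR factor sum is Atf4, which rose by 0.16 on the log2 scale, while the median of those 5 genes was 1.06. The sensors summed to 0.96 times their Control level, a ratio that turned to 1.02 with upper quartile scaling. Without Hspa5 the sum of the remaining 40 genes was 1.19 times its Control level. Other secreted matrix genes, 20 in number, summed to 1.51 times their Control level in CPM but to 1.10 times per kilobase of exon. Of the 18 that were tested, 11 were called higher and 6 lower (61.1% and 33.3%, against 38% and 37.1% of all tested genes).

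**Figure D5:**
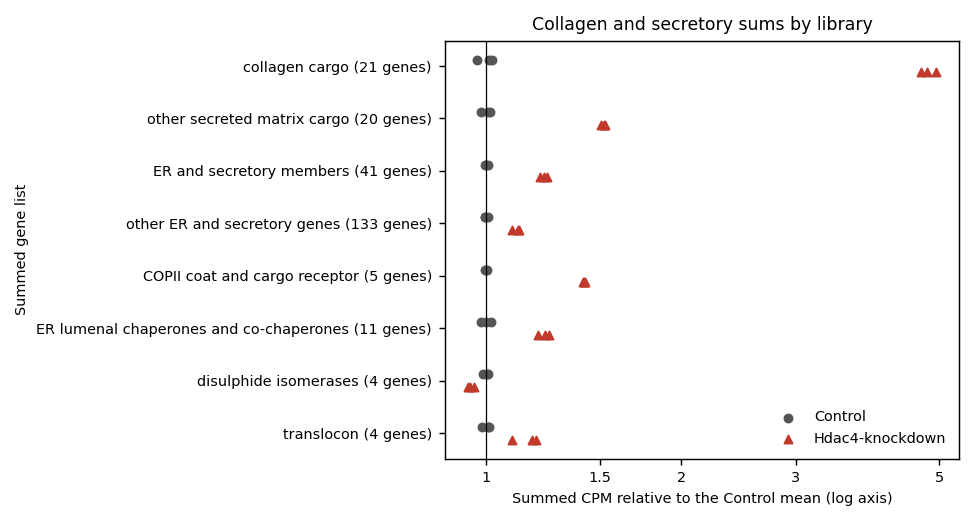
Summed CPM of gene lists in each library relative to the Control mean of that list (x axis, log scale), with Control libraries as grey circles and Hdac4-knockdown libraries as red triangles. The collagen genes stand near 4.81 times Control and the 41 ER and secretory genes near 1.23 times.

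Beyond the 41 genes, 133 other genes of the same pathways were listed, of which 129 were tested. Of these, 64 were called higher and 34 lower, with a median log2 fold change of 0.11, and their sum rose 1.11 times. That is 49.6% higher and 26.4% lower, against 38% and 37.1% of all tested genes. The share called in either direction was 76.0% here and 75 to 85% in the 5 groups of these genes that follow, against 75.1% of all tested genes. In other folding and oxidation genes, 12 of 20 were higher and 5 lower. Ganab, the α subunit of glucosidase II, rose by 1.00 and Mcfd2, a cargo receptor subunit, by 0.85, whereas the oxidases that feed disulphides to the isomerases were lower. Ero1l was at 86.3, 83.1 and 91.5 CPM in Control and 49.0, 43.8 and 49.0 CPM in knockdown libraries (-0.88, SE 0.056), and Ero1lb was lower too (-1.10, SE 0.089). In other targeting, translocation and glycosylation genes, 12 of 22 were higher and 5 lower, with Sec11c at 0.80 and with Srp19 at -0.31 and Spcs3 at -0.28. Srp54a was called at 2.60, but it has near-identical copies in the mouse genome between which reads may be split, so this value is uncertain.

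Among 21 other COPII and COPI genes, 11 were higher and 5 lower. Copz2, a COPI subunit, rose by 1.52 and Sec16b, which organises ER exit sites, by 1.46, while Arf1, the GTPase of COPI, was lower (-0.60, from 636, 621 and 619 CPM to 406, 418 and 415 CPM) and Sar1b, the GTPase of COPII, was lower (-0.27, SE 0.050). Among 12 other degradation genes 5 were higher and 5 lower. Of those with a mean of at least 100 counts, Os9 (0.46) and Selenos (0.41) were the highest and Derl2 (-0.30) and Ube2j1 (-0.22) the lowest. The wider UPR and integrated stress response list had 28 tested genes, 14 higher and 7 lower, and its strongest changes went both ways. Vldlr, a lipoprotein receptor, was at 0.818, 0.702 and 0.667 CPM in Control and 27.1, 29.2 and 29.0 CPM in knockdown libraries, and Slc7a11, the cystine transporter, rose by 1.97. Atf3, a stress-induced factor and, like Ddit3, a target of Atf4, was at 14.7, 15.5 and 14.5 CPM in Control and 1.16, 1.61 and 1.20 CPM in knockdown libraries (-3.48, SE 0.14, adjusted p = 8.62e-15). Gdf15, a secreted stress signal, was at 47.0, 49.0 and 46.0 CPM and 3.65, 4.56 and 3.75 CPM (-3.56, SE 0.085, adjusted p = 3.57e-18). Both fell in every knockdown library while Ddit3, Trib3 and Chac1 rose.

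Levels per kilobase of exon place the 41 genes against each other. In Control libraries the most abundant were Calr at 208 ± 4.05 CPM per kilobase (SD, n = 3), Pdia3 at 198 ± 4.09, Atf4 at 157 ± 2.99 and Ssr3 at 129 ± 2.48. Canx at 121.8 ± 2.08 and Hspa5 at 121.7 ± 0.59 came next and did not differ beyond their spread. In the knockdown libraries Calr stayed first at 257 ± 4.18, and Hspa5 came next at 206 ± 4.63, ahead of Pdia3 at 188 ± 2.80. The least abundant genes in Control were Trib3 (4.04 ± 0.298), Fkbp14 (4.20 ± 0.187) and Eif2ak3 (4.30 ± 0.0624), neighbours whose values lay within their spread. In the knockdown Fkbp14 stood at 12.2 ± 0.767 and Eif2ak3 was last at 5.33 ± 0.283.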

How the data were processed

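The authors deposited raw read counts per Ensembl gene for each of the 6 libraries, without normalization. Per the labels, libraries were made from poly-A selected RNA with a kit that keeps no strand, and the submitters' processing notes name FastQC, STAR 2.7.3a, HTSeq 0.12.4 and the mm10 build. The annotation release is not given in the sources used here. Summary lines for reads outside genes (3.17 to 5.07% of all lines), reads on several genes (5.84 to 6.51%) and reads with several alignments (3.88 to 4.77%) were left out. Reads that the counter placed on several genes were therefore counted for none of them, and its overlap mode and strand setting are not given in the sources used here. Symbols, positions and exon lengths came from GENCODE M21 (GRCm38), which held 53706 of the 53801 identifiers.

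Counts were fitted in edgeR 4.0.16 (R 4.3.3) with TMM scaling, the default filterByExpr filter and the quasi-likelihood F test, and p-values were adjusted over all 14531 tested genes. The fit had group as its only term and used all 6 libraries. SE is the log2 fold change divided by the square root of F. Exact two-sided permutation tests of single genes reach at best p = 0.1 in a design of 3 and 3 libraries and were used to describe overlap alone. Sums over lists have no test. Alternatives were DESeq2 1.42.0, limma-voom (limma 3.58.1), other scalings, filters and thresholds, the replicate number as a block, and each library left out in turn. Promoter sequences are from RefSeq (GRCm38.p6), with 12 flanking bases around an element or 5 where an annotated exon was touched and at the ends of the Hsp90b1 stretch. The protein features planned for these genes were not analysed here. Named genes are Hdac4, the 41 listed genes, their tested paralogs, 5 fibrillar collagens, and from each other list up to 2 of the highest and 2 of the lowest called genes with a mean of at least 100 counts. The genes and lists were chosen with earlier results of these data known.

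Libraries of the same group differed by more than sampling noise, with a chi-square per degree of freedom of 3.38 to 9.15. Figures were drawn with matplotlib 3.10.9.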

Additional observations from a re-analysis of the deposited data

How the results depend on the processing

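Over the main analysis and 14 alternatives that changed scaling, filter, test, block or libraries, 30 of the 41 genes were called higher in each and Pdia6 and Atf6 lower in each. The number called higher ranged from 30 to 35 and the number lower from 2 to 4, and leaving out single libraries gave 30 to 33 higher and 2 to 4 lower. The replicate numbers of the labels showed no clear pairing of the groups. Correlations of deviations were -0.01, 0.10 and 0.02 for libraries of the same number and -0.08 to 0.07 for those of unlike number. With 3 libraries per group this check cannot exclude pairing. A fit with replicate block gave 32 genes higher and 3 lower. A stricter threshold reduced the counts by construction. At 0.5 on the log2 scale, 15 of the 41 genes were higher and 0 lower, 27 and 10 of the other ER and secretory genes, and 3579 and 2879 of all genes. At 1, these counts were 6 and 0, 12 and 4, and 2397 and 1543. The summed level of the 41 genes, 1.23 times Control, was 1.27 times with library size alone, 1.30 times with upper quartile scaling and 1.19 times without Hspa5, and 1.22 to 1.23 times with each library left out. The median log2 fold change of all tested genes was 0.01 with TMM, 0.07 with library size alone, 0.10 with upper quartile scaling and 0.25 with no filter beyond 1 count.

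Of 574 comparisons of a gene with its alternative value, 531 kept direction and call, 8 kept direction and gained a call (Dnajc3 in 4, Pdia3 in 3 and Hsp90b1 in 1), 14 lost one and 21 changed sign. The changes of sign belonged to 5 genes that were not called in the analysis as reported, and 1 of them, Canx with upper quartile scaling, then passed the threshold. With DESeq2 size factors Canx turned to 0.0015 and Sec61b to 0.00084, and in DESeq2 they turned to 0.0015 and 0.00086. With library size alone these genes turned to 0.057 and 0.056, and with at least 10 counts in every library to 0.038 and 0.037. With upper quartile scaling Canx turned to 0.089, Sec61b to 0.089 and Pdia3 to 0.012. With no filter beyond 1 count Hsp90b1 turned to -0.016 and Ssr1 to -0.024. Leaving out single libraries gave -0.035 to 0.045 for Hsp90b1, -0.022 to 0.039 for Canx, -0.055 to 0.050 for Sec61b and -0.032 to 0.054 for Ssr1. The causes were not tested. For genes near 0, the interval of about 0.1 on either side sets what 3 libraries per group can show.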
